A study of Mus musculus with 20 samples.

Results

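The 9 genes Dnmt1, Uhrf1, Dnmt3a, Dnmt3b, Dnmt3l, Tet1, Tet2, Tet3 and Tdg encode the enzymes and core partners that write, copy and remove 5-methylcytosine in mouse DNA. They were chosen by name, as 9 of the 30265 genes in the deposited tables, and all 9 passed the filter on low counts in both experiments. Their transcripts were followed in 20 RNA sequencing libraries of 2 experiments on the Krüppel-like factor Klf5, a transcription factor with zinc fingers. The first used embryonic stem cells (ESCs) derived from C57BL/6J mice and grown with LIF on irradiated mouse embryonic fibroblast feeders, of which 2 libraries overexpressed GFP (the control) and 2 overexpressed Klf5. The second used single E4.5 embryos, which the labels give as harvested from C57BL/5J mice, cultured in KSOM with albumin and carrying a scramble siRNA (10 embryos) or an siRNA against Klf5 (6 embryos). The promoter that drove the transgenes, and whether the stem cells were 1 clone, are not given in the sources used here. The labels do not say that stem cell replicates were separate cultures, so p-values there cover the spread between 2 libraries a group, and that spread may be technical.

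Methylation of cytosine at CpG sites is laid down afresh by the DNA methyltransferases Dnmt3a and Dnmt3b, helped by Dnmt3l, a relative without catalytic activity that binds and stimulates them. After replication, Uhrf1 recognises hemimethylated DNA and recruits Dnmt1, which copies the mark to the new strand. The Tet dioxygenases oxidise 5-methylcytosine, and Tdg excises the most oxidised forms so that base excision repair can restore plain cytosine. In the mouse, methylation falls to its lowest around the blastocyst and is then rebuilt in the epiblast.

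The 250 bases upstream of 3 members' start sites are shown because Dnmt3b was the member called in embryos and Uhrf1 and Dnmt3l had the highest levels per length in stem cells. They are RefSeq sequence on GRCm38.p6 (mm10), 5′ to 3′ on the gene's strand, with capitals at each match to CCNCNCCC or its reverse complement GGGNGNGG, letters found in CACCC and GC boxes, the kind of site that Krüppel-like factors bind. Overlapping matches are capitalised as 1 run, and no base shown lies in an exon. The Dnmt3b window is chr2:153649199-153649448 (plus strand), the Uhrf1 window at the later of its start sites is chr17:56304063-56304312 (plus strand), and the Dnmt3l window at the middle of its start sites is chr10:78049592-78049841 (plus strand).
Dnmt3b: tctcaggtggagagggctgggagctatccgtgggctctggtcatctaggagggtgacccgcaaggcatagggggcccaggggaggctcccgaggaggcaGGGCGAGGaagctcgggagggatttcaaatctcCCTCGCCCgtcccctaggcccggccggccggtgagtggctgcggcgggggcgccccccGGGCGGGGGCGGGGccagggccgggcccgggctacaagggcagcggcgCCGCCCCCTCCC
Uhrf1: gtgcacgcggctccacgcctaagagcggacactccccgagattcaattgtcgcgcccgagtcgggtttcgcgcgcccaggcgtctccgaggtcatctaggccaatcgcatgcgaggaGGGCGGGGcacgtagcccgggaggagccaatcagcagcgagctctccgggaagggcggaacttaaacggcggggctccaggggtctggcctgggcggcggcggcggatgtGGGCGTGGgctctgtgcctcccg
Dnmt3l: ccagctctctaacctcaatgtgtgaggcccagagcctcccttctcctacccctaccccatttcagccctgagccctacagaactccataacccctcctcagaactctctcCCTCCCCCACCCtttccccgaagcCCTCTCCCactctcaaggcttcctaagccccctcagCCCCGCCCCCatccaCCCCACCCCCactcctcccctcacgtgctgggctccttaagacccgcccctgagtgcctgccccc

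The Dnmt3b window held 7 matches and an observed over expected CpG ratio of 0.608. The Uhrf1 window held 2 matches and was the richest in CpG of the 3, at a ratio of 1.00. The Dnmt3l window held 7 matches in CpG-poor sequence, at 0.250. Counts depend on the window shown: the earlier Uhrf1 window held 4 matches, and the first and last Dnmt3l windows held 0 and 4. All 9 members were found in the promoter table, with 16 start-site windows between them, and 13 of those windows, from 8 members, held a match. The Tdg window held none. Of 32851 windows of all genes 45.9% held a match, and the median CpG ratio was 0.373 over all windows and 0.585 over those of the members. A match describes letters in the window, and Klf5 binding was not measured here. Dnmt1, Dnmt3a and Dnmt3l have 3 windows each and Uhrf1 has 2, while the deposited values add the transcripts of all starts of a gene, so oocyte and somatic Dnmt1 or long and short Dnmt3a cannot be separated.

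Stem cell libraries held 26.8e6 to 37.5e6 counts and embryo libraries 14.7e6 to 24.9e6, at which 3 counts correspond to 0.0800 to 0.112 and 0.120 to 0.204 CPM (counts per 1e6 counts), for counting error only. These floors use the unscaled totals. All other CPM here use TMM-scaled library sizes, on which the floor of a library can lie outside these ranges. Markers of naive pluripotency were present in every stem cell library (summed 5889 to 7462 CPM, none of 12 genes at 0). Fibroblast markers, which feeders express, summed to 2140 to 2219 CPM with GFP and 2382 to 2512 CPM with Klf5, against 0.489 to 23.2 CPM in embryos. The part of feeder RNA in the stem cell values below was not tested. Klf5 itself stood at 75.6 ± 6.83 CPM (SD, n = 2) with GFP and 912 ± 42.7 CPM with Klf5. In embryos it stood at 382 to 592 CPM with scramble siRNA. The 6 embryos labelled Klf5 siRNA held 543, 111, 195, 80.8, 117 and 292 CPM, so embryo 1 lay inside the scramble range. The library numbers in the labels put every scramble library before every Klf5 siRNA library, so siRNA and numbering cannot be told apart. In whole embryos and mixed cultures, fewer cells of a type and less RNA per cell cannot be told apart.

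Between genes, levels were compared as reads per kilobase of merged exons per 1e6 counts (RPKM). In GFP stem cells Dnmt3l (217 ± 21.3 RPKM, SD, n = 2) and Uhrf1 (186 ± 9.34) stood highest, followed by Dnmt1 (60.6 ± 4.85), the maintenance enzyme. Dnmt3b (29.1 ± 2.00), Tdg (13.1 ± 1.08) and Dnmt3a (10.8 ± 1.99) came next, then Tet1 (3.24 ± 0.386). Tet2 (1.12) and Tet3 (1.07) were last, and among neighbours in this order only their ranges overlapped. With Klf5 the order was the same except that Tet3 (1.31) stood above Tet2 (1.15).

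Scramble embryos had another order. Dnmt3b was highest (30.3 ± 10.4 RPKM, SD, n = 10), ahead of Dnmt3l (20.2 ± 3.87), Uhrf1 (15.8 ± 5.74) and Tdg (12.5 ± 2.82), each overlapping the next in range. Tet1 (3.94 ± 1.55) lay below all of these with no overlap with Tdg. Dnmt1 (2.29 ± 0.664), Tet2 (1.77 ± 1.00) and Dnmt3a (1.49 ± 0.462) overlapped each other, and Tet3 (0.354 ± 0.207) lay below Dnmt3a in every embryo. In Klf5 siRNA embryos the means ran from Dnmt3l (16.6) and Dnmt3b (16.2) through Uhrf1 (9.25), Tdg (8.46), Tet1 (2.55), Dnmt1 (1.499), Tet2 (1.37) and Dnmt3a (1.06) to Tet3 (0.224). These orders depend on the length used. With the median transcript length in place of merged exons, 4 of 9 members kept their place in GFP cells, 3 in Klf5 cells and 2 in each embryo group.

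**Figure D1:**
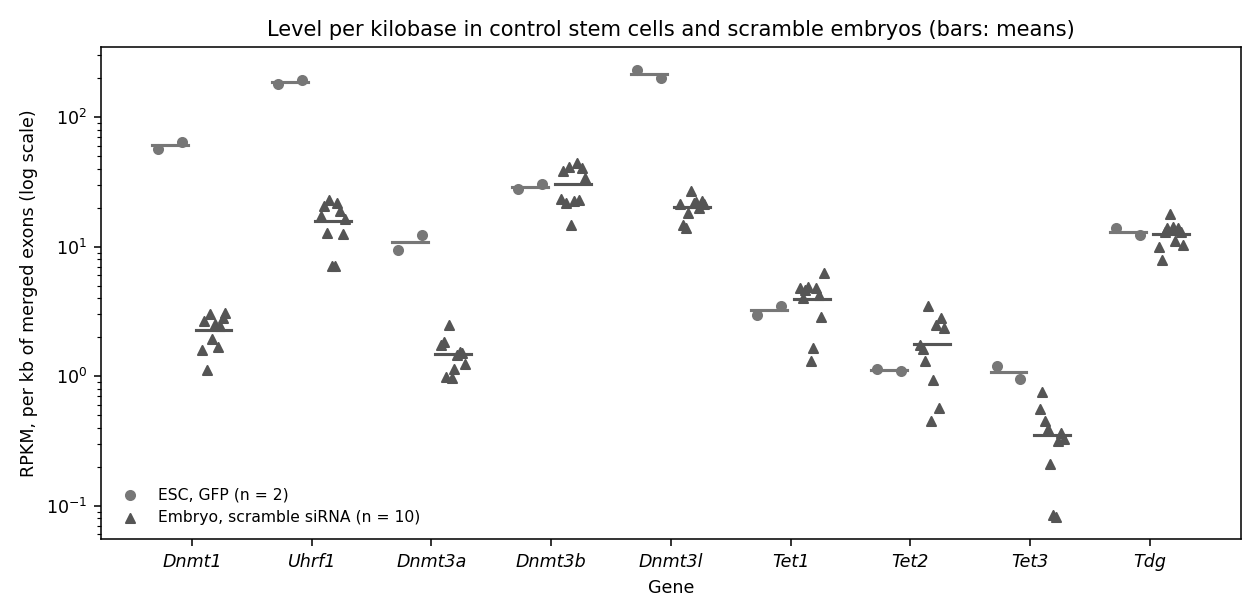
Level of each gene per kilobase of merged exons (RPKM, log axis) in the 2 GFP stem cell libraries (circles) and the 10 scramble embryos (triangles), with bars at the means. Dnmt1, Uhrf1, Dnmt3a and Dnmt3l sit far lower in embryos than in stem cells, while Dnmt3b, Tdg, Tet1 and Tet2 sit at similar heights.

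Gene by gene, GFP stem cells and scramble embryos can be set side by side without length, although kits and amplification differed and no test was made. Dnmt1 averaged 447 CPM in stem cells and 16.9 CPM in embryos, a ratio of 26.5. The ratio was 11.8 for Uhrf1, 10.8 for Dnmt3l, 7.26 for Dnmt3a and 3.04 for Tet3. It was 1.04 for Tdg, 0.959 for Dnmt3b, 0.822 for Tet1 and 0.633 for Tet2. Thus the 2 de novo enzymes differed in balance: the log2 ratio of Dnmt3b to Dnmt3a per length was 1.44 ± 0.17 in GFP cells (SD, n = 2) and 4.32 ± 0.41 in scramble embryos (n = 10), with 3.75 the lowest embryo and 1.56 the higher stem cell library. Which of the 2 genes is higher in stem cells depends on the length used. With the median transcript length the log2 ratio was -2.59 in GFP cells and 0.30 in scramble embryos. The step between the groups is the same with either length by construction, because a change of length shifts the ratio alike in every library. The log2 ratio of Uhrf1 to Dnmt1 per length was 1.62 ± 0.04 in GFP cells and 2.74 ± 0.74 in scramble embryos. On this log2 scale the embryos spanned 1.48 to 3.70 and reached the stem cell values.

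In stem cells the comparison asks whether raising Klf5 changed these transcripts. None of the 9 members passed the threshold (edgeR quasi-likelihood test, Benjamini-Hochberg adjusted over all genes, 0.05), against 2.78% of 15968 genes tested (444 genes, 1.67% higher and 1.11% lower). 1 member, Dnmt3b, had an unadjusted edgeR p under 0.05, as did 3710 of the 15968 genes tested. By DESeq2 Dnmt3b was the 1 member called. limma voom called none. The median log2 fold change was 0.02 over the members and -0.0025 over all genes tested.

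Dnmt3b, which methylates repeats and germline gene promoters de novo, held 141 and 156 CPM with GFP and 97.2 and 115 CPM with Klf5. Both Klf5 libraries lay below both GFP libraries. With so few libraries unchanged genes often separate in this way too, and the share over all genes was not counted. The means were 148 ± 10.2 and 106 ± 12.7 CPM, a log2 fold change of -0.48 ± 0.13 (SE, 95% interval -0.78 to -0.19, edgeR adjusted p = 0.0839). DESeq2 put its adjusted p at 0.0210, and without Klf5 library 2 edgeR gave -0.61 with adjusted p = 0.0443.

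The maintenance pair differed by less than the spread between libraries. Dnmt1 held 422 and 472 CPM with GFP and 470 and 373 CPM with Klf5 (log2 fold change -0.08 ± 0.15, 95% interval -0.43 to 0.26). Uhrf1 held 764 and 820 CPM against 797 and 685 CPM (-0.10 ± 0.13, interval -0.41 to 0.22). The groups overlapped for both.

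Dnmt3a, the other de novo enzyme, held 156 and 203 CPM with GFP and 132 and 196 CPM with Klf5 (-0.13 ± 0.22, interval -0.66 to 0.40). Dnmt3l held 694 and 604 CPM against 653 and 835 CPM (0.20 ± 0.16, interval -0.17 to 0.57). Neither separated the groups. The gene Aire overlaps Dnmt3l on the opposite strand and was listed at 430 to 519 CPM with GFP and 279 to 397 CPM with Klf5. Reads of these 2 genes cannot be told apart by strand with this kit, so the Dnmt3l values in stem cells are uncertain to that extent. In embryos Aire stayed at or below 2.46 CPM.

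Among the demethylation genes Tet1, the main Tet enzyme of stem cells, held 45.8 and 54.2 CPM with GFP and 95.3 and 53.5 CPM with Klf5 (0.57 ± 0.28, interval -0.15 to 1.29, edgeR adjusted p = 0.297). The higher mean rested on Klf5 library 1: without Klf5 library 2 the log2 fold change was 0.93 with adjusted p = 0.0176, and without Klf5 library 1 it was 0.10 (adjusted p = 0.776). Tet2 was split the same way, with 19.3 and 18.6 CPM against 26.7 and 12.0 CPM (0.03 ± 0.38, interval -0.95 to 1.01). Tet3 held 20.1 and 15.7 CPM against 21.5 and 22.1 CPM without overlap (0.28 ± 0.16, adjusted p = 0.335). Tdg, the glycosylase, was nearly level at 74.5 and 66.2 CPM against 73.6 and 68.6 CPM (0.02 ± 0.12, interval -0.26 to 0.30).

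**Figure D2:**
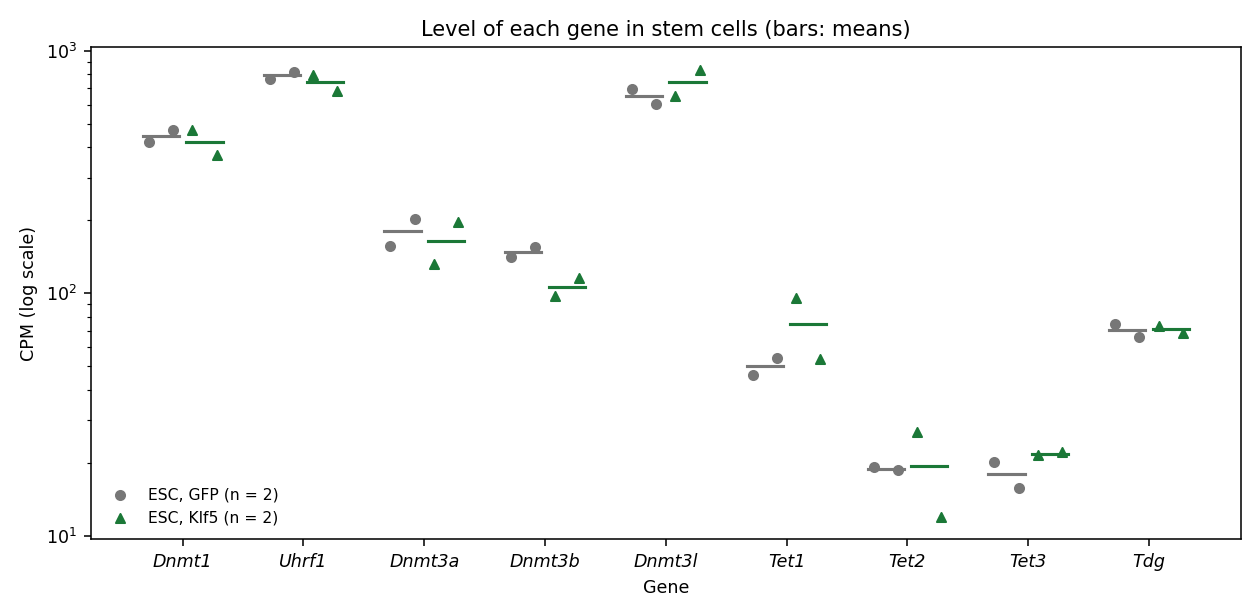
CPM (log axis) of each gene in the GFP (circles) and Klf5 (triangles) stem cell libraries, 2 of each, with bars at the means. Dnmt3b and Tet3 are the genes whose groups do not overlap, which with 2 libraries a group often happens for unchanged genes too. The pair of Klf5 triangles is widest apart for Tet1 and Tet2.

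In embryos the comparison asks what changed when Klf5 was lowered. 1 of the 9 members passed the threshold, Dnmt3b, which fell, against 19.8% of 12385 genes called in either direction and 7.74% called lower (12.0% higher). 3 of the 9 members had an unadjusted edgeR p under 0.05 (Dnmt3b, Tdg and Uhrf1), beside 4112 of the 12385 genes tested, a like share. All 9 fitted log2 fold changes were below 0, with a median of -0.61, while the median over all genes tested was -0.0065. Fold changes followed gene length in this experiment. The median was 0.82 in the shortest 10% of genes and -0.32 in the longest, the class that holds Dnmt3a, Tet1, Tet2 and Tet3, and -0.18 in the class of Dnmt3b and Tdg. With fold changes fitted over a per-library offset for gene length, no member was called.

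Dnmt3b ranged from 75.1 to 227 CPM in scramble embryos, with a median of 146. After Klf5 siRNA, embryos 1 to 6 held 133, 53.6, 46.7, 36.8, 122 and 104 CPM. Embryos 2, 3 and 4 lay below every scramble embryo, all 6 lay below the scramble mean, and embryo 1, whose Klf5 was at the scramble level, was the highest of them. The means were 155 ± 53.0 (SD, n = 10) and 82.5 ± 41.8 CPM (n = 6), a 1.87-fold lower level (log2 fold change -0.91 ± 0.32 SE, 95% interval -1.57 to -0.25, edgeR adjusted p = 0.0494). This call sat at the threshold. It was lost without any 1 of scramble embryos 1, 2, 4, 7, 8, 9 and 10 or of Klf5 siRNA embryos 2, 3, 4 and 6 (log2 fold change -1.01 to -0.78, edgeR adjusted p = 0.0513 to 0.0988), with the length offset (-0.69, adjusted p = 0.131) and with the mitochondrial share as a covariate (-0.64, adjusted p = 0.323). The fold change stayed below 0 in all 29 alternatives (-1.12 to -0.62), and the call was kept in 9.

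Uhrf1, the hemimethylated DNA reader, ranged from 29.97 to 98.4 CPM with scramble siRNA (median 71.6). In the Klf5 siRNA embryos 1 to 6 it held 38.6, 60.9, 16.3, 59.9, 35.0 and 25.8 CPM. Only embryos 3 and 6 lay below all scramble embryos, although all 6 lay below the scramble mean, and scramble embryos 5 and 6 were themselves low at 30.4 and 29.97 CPM. The log2 fold change was -0.77 ± 0.33 (interval -1.45 to -0.09, edgeR adjusted p = 0.103). With the number of detected genes as a covariate it was -1.07 (adjusted p = 0.0169), without Klf5 siRNA embryos 2 and 4 it was -1.23 (adjusted p = 0.0280), and with the mitochondrial share as a covariate it turned to 0.11 (adjusted p = 0.850).

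Dnmt1 was low in every embryo. It ranged from 8.20 to 22.5 CPM with scramble siRNA (median 18.3) and was 8.08, 3.71, 8.21, 14.2, 14.9 and 17.2 CPM in Klf5 siRNA embryos 1 to 6. Embryos 1 and 2 lay below all scramble embryos, and the log2 fold change was -0.61 ± 0.33 (interval -1.30 to 0.08, edgeR adjusted p = 0.205).

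Dnmt3a ranged from 16.2 to 41.7 CPM with scramble siRNA (median 24.5). In the Klf5 siRNA embryos it held 15.2, 12.7, 11.9, 11.2, 40.2 and 15.1 CPM. All but embryo 5 lay below every scramble embryo, and embryo 5 lay near the top of the scramble range. With it the log2 fold change was -0.48 ± 0.31 (edgeR adjusted p = 0.292) and without it -0.92 (adjusted p = 0.0301). Embryo 5 did not stand apart for Dnmt3b (122 CPM) or for its Klf5 level (117 CPM).

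Dnmt3l ranged from 41.3 to 80.6 CPM with scramble siRNA (median 63.6). It held 88.6, 34.4, 48.4, 47.0, 40.7 and 37.9 CPM in Klf5 siRNA embryos 1 to 6. Embryos 2, 5 and 6 lay below all scramble embryos and embryo 1 above all of them (log2 fold change -0.29 ± 0.23, interval -0.77 to 0.20, edgeR adjusted p = 0.420). Without embryo 1 it was -0.54 (adjusted p = 0.0914).

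**Figure D3:**
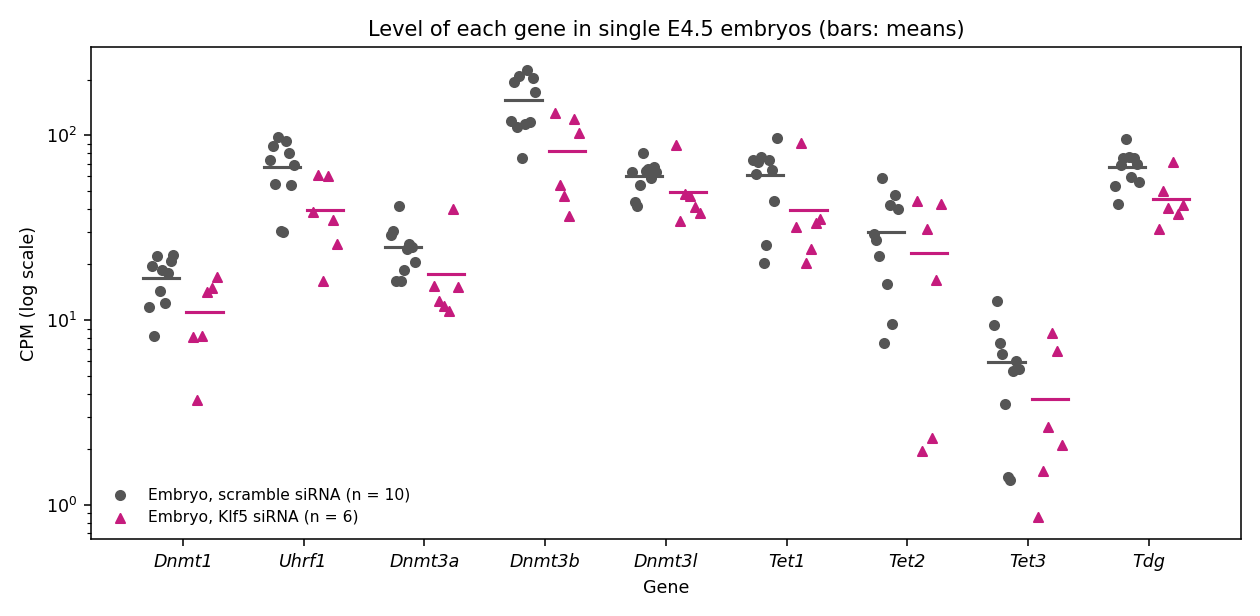
CPM (log axis) of each gene in the 10 scramble (circles) and 6 Klf5 siRNA (triangles) embryos, with bars at the means. All 9 triangle means lie below the circle means, yet the groups overlap for every gene, and single triangles stand high for Dnmt3a, Dnmt3l and Tet1.

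Tdg had the narrowest fitted error beside Dnmt3l. It ranged from 42.5 to 96.2 CPM with scramble siRNA (median 69.7) and held 31.0, 50.2, 40.2, 71.8, 37.5 and 42.1 CPM in Klf5 siRNA embryos 1 to 6. Embryos 1, 3, 5 and 6 lay below all scramble embryos and embryo 4 above the scramble median. The log2 fold change was -0.57 ± 0.23 (interval -1.05 to -0.09, edgeR adjusted p = 0.0901). Without embryo 4 it was -0.76 (adjusted p = 0.0256), and DESeq2 gave adjusted p = 0.0345.

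Tet1 ranged from 20.4 to 96.6 CPM with scramble siRNA (median 68.3), with scramble embryos 5 and 6 lowest at 20.4 and 25.4 CPM. The Klf5 siRNA embryos held 31.9, 91.0, 20.5, 24.4, 33.7 and 35.1 CPM. None lay below all scramble embryos, and embryo 2 was far above the other 5. The log2 fold change was -0.63 ± 0.36 (interval -1.38 to 0.12, edgeR adjusted p = 0.233), and without embryo 2 it was -1.07 (adjusted p = 0.0329). With the mitochondrial share as a covariate it turned to 0.38 (adjusted p = 0.459).

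Tet2 ranged from 7.54 to 58.7 CPM with scramble siRNA (median 28.2), and the Klf5 siRNA embryos fell into a low pair, embryos 2 and 4 at 1.97 and 2.29 CPM (27 and 41 counts), and 4 others at 44.0, 30.9, 16.6 and 42.7 CPM inside the scramble range. Embryos 2 and 4 also held the lowest Klf5 levels (111 and 80.8 CPM), although embryo 5 with 117 CPM of Klf5 held 16.6 CPM of Tet2. The log2 fold change was -0.37 ± 0.58 (interval -1.58 to 0.83, edgeR adjusted p = 0.692). Without embryos 2 and 4 it was 0.17 (adjusted p = 0.852). Tet3 was the lowest member, from 1.37 to 12.6 CPM (median 5.73) with scramble siRNA and from 0.859 to 8.51 CPM (median 2.37) with Klf5 siRNA (-0.66 ± 0.56, interval -1.82 to 0.51).

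**Figure D4:**
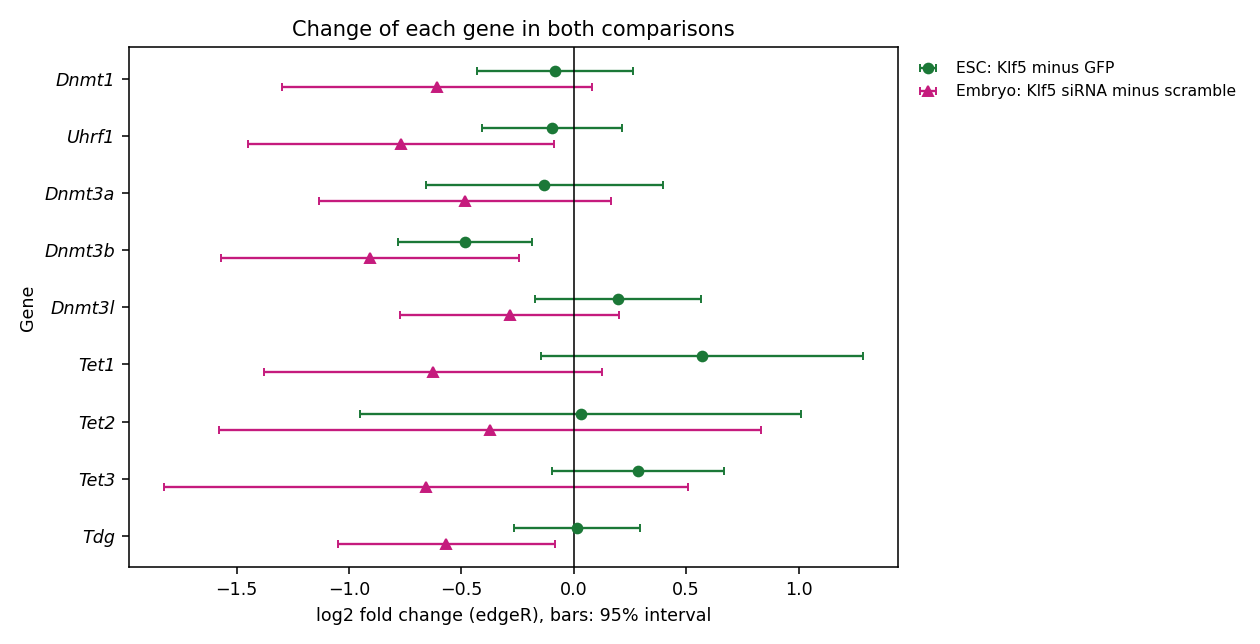
Fitted log2 fold change of each gene with its 95% interval, Klf5 minus GFP in stem cells (circles) and Klf5 siRNA minus scramble in embryos (triangles). All 9 embryo estimates lie left of 0 and the intervals of Dnmt3b, Uhrf1 and Tdg stay there, while in stem cells only the interval of Dnmt3b leaves out 0, on the same side as in embryos.

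Markers of other lineages also moved with the stem cell groups. All 12 primitive endoderm markers had fitted values above 0 with Klf5 (median 2.22), and 4 were called by edgeR (33.3%, beside 2.78% over all genes tested). DESeq2 called 8 of the 12, while limma voom and the test against a 1.5-fold change called 0. Their sum was 757 to 1108 CPM with GFP and 1221 to 3401 CPM with Klf5. Trophectoderm markers summed to 940 to 1946 CPM with GFP and 337 to 693 CPM with Klf5, although none of 11 was called by edgeR. Of these, 4 had an unadjusted edgeR p under 0.05 (beside 3710 of 15968 genes tested), and 2 were called by DESeq2 and 0 by limma voom. None of the 12 genes of either list was at 0 in any stem cell library. The part of these shifts in the stem cell values, of the members and of the other genes named below, was not tested.

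The direction of Dnmt3b was below 0 both where Klf5 was raised and where it was lowered, at -0.48 in stem cells and -0.91 in embryos, of which only the second passed the threshold. The libraries of the 2 experiments share no controls, and the difference between them was not tested.

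Other transcripts moved with the embryo groups. Trophectoderm markers, of the outer lineage that Klf5 is known to support, fell for 8 of 11 tested (72.7%, median -1.75), beside 7.74% called lower over all genes tested. They summed to 2231 to 8537 CPM with scramble siRNA and 201 to 2446 CPM with Klf5 siRNA, with at most 1 of 12 genes at 0 in any embryo. Epiblast markers summed to 589 to 841 and 486 to 811 CPM, and primitive endoderm markers to 448 to 762 and 242 to 532 CPM. Of 12 epiblast markers 9 had fitted values below 0 (median -0.55). Among them Klf2 rose and Fgf4 fell (16.7% called, beside 19.8% over all genes tested), calls lost in 7 and 18 of 29 alternatives. Of 11 primitive endoderm markers 2 fell, Sox17 and Pdgfra, and 9 were not called (median -1.51). That called share, 18.2%, was near the 19.8% over all genes tested. Of 10 measured markers of the 2-cell-like state 4 passed the filter on low counts. By edgeR 3 of these rose (median 2.18), beside 12.0% of all genes tested called higher, and limma voom called 1. A gene can pass that filter through 1 group alone, so this count describes those 4 genes only. In each embryo 5 to 7 of the 10 were at 0 with scramble siRNA and 1 to 7 with Klf5 siRNA. The 10 summed to 13.2 to 40.3 CPM with scramble siRNA and 34.2 to 218 CPM with Klf5 siRNA. Of 16 S-phase genes 6 fell and 1 rose (median -0.80, 43.8% called beside 19.8% over all genes tested). Mcm2, a helicase subunit, fell 1.97-fold from 87.4 to 44.5 CPM (edgeR adjusted p = 0.00217), and Cdt1, a licensing factor, fell 2.09-fold (adjusted p = 0.00233). Uhrf1 is itself known to be expressed in cycling cells. The mitochondrial share was 4.34% to 18.5% with scramble siRNA and 2.45% to 10.3% with Klf5 siRNA. The part of these in the members' values was not tested beyond the covariate values given.

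Across the 10 scramble embryos the members did not vary as 1 block. Of the 36 pairs, tested by permutation on log2 CPM, Dnmt3b and Tet2 had Pearson's r = 0.87 (permutation p = 0.00089, adjusted over 36 pairs 0.0320) and Spearman's rho = 0.88 (permutation p = 0.00161, adjusted 0.0580). Without the 2 embryos farthest from the median of Dnmt3b r was 0.78. Uhrf1 and Tet1 had r = 0.87 (permutation p = 0.00473, adjusted 0.0851), which rested on 2 embryos, since r was 0.36 without them. No other pair passed on r, and none passed on rho. Each point is 1 embryo and 1 library, and depth and mitochondrial share differ between them.

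**Figure D5:**
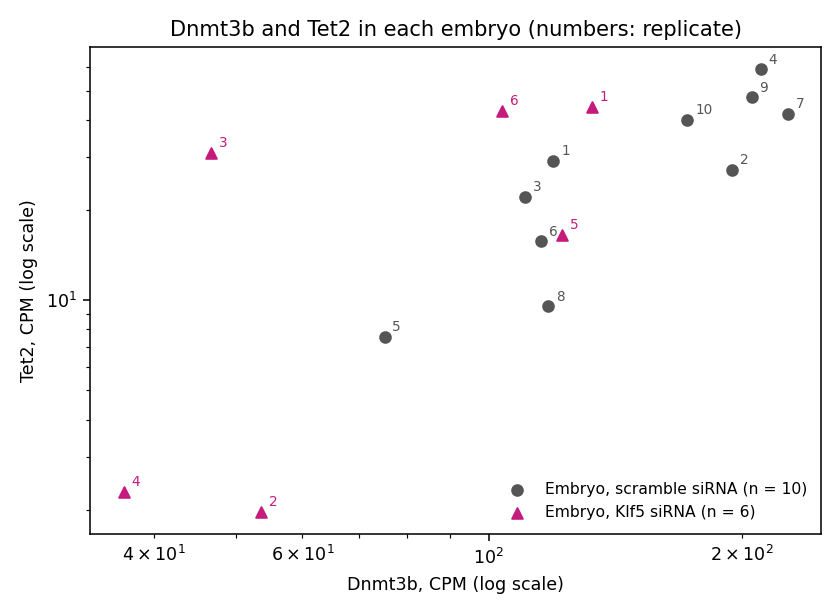
Tet2 against Dnmt3b in each embryo (CPM, both axes logarithmic), with replicate numbers. The scramble embryos (circles) run from embryo 5 at 75.1 and 7.54 CPM up to embryos 4, 7 and 9, while Klf5 siRNA embryos (triangles) 2 and 4 are low in both genes and embryo 3 is low in Dnmt3b at 30.9 CPM of Tet2.

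The genes most alike to each member over the scramble embryos were sought among 11572 tested genes by Pearson's r of log2 CPM, as a description over 10 embryos. For Dnmt3b these were Cobl (r = 0.96) and Ntrk3 (0.94), and for Uhrf1 R3hdm1 (0.98) and Celf1 (0.98). For Tdg they were Cdca7 (0.94) and Gusb (0.93), for Tet1 Tmem258 came first (0.98), for Dnmt3a Spen (0.93), for Dnmt3l Tcf25 (0.95), for Tet3 Stmn2 (0.95), for Dnmt1 S100z (0.91) and for Tet2 Cpa6 (0.90).

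Among 23 tested co-factors of methylation writing and upkeep, 1 fell and none rose in stem cells (median 0.04, 4.35% called beside 2.78% over all genes tested). In embryos 2 rose and 3 fell (median -0.46). The called share in embryos, 21.7%, was near the 19.8% over all genes tested. Dppa3, which shields DNA from methylation by displacing Uhrf1, went in opposite directions. In stem cells with Klf5 it fell 4.02-fold, from 16.0 ± 1.08 to 3.99 ± 1.06 CPM (edgeR adjusted p = 0.0285), and in embryos with Klf5 siRNA it rose 2.66-fold, from 4189 ± 1363 to 11159 ± 4043 CPM (adjusted p = 0.00145). The embryo call was kept in all 29 alternatives, with log2 fold changes from 0.71 to 1.68. The stem cell call was lost in the test against a 1.5-fold change (edgeR adjusted p = 0.0952) and without GFP library 1 (log2 fold change -2.07). In embryos Trim28, the co-repressor that brings silencing complexes to repeats and imprints, fell 1.75-fold (292 ± 41.9 to 167 ± 40.8 CPM, adjusted p = 0.00645) and the histone H3 lysine 36 methyltransferase gene Nsd2 fell 2.71-fold (adjusted p = 0.00824). Setd2, of the same enzyme class, rose 3.83-fold (adjusted p = 0.00590), or by 1.24 on the log2 scale in place of 1.94 without Klf5 siRNA embryo 1. Kdm1b, the oocyte histone demethylase gene, fell 3.12-fold (adjusted p = 0.0410), a call lost without any 1 of scramble embryos 1, 3, 4, 5, 7, 8 and 10 or of Klf5 siRNA embryos 4, 5 and 6 (adjusted p = 0.0537 to 0.0718).

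Among CpG-binding proteins 1 of 11 rose in stem cells (median -0.08, 9.09% called beside 2.78% over all genes tested). The same gene was the 1 of 10 that fell in embryos (median -1.03, 10.0% called beside 19.8% over all genes tested). Cxxc5, a CXXC zinc-finger protein, rose 1.85-fold with Klf5, from 40.9 ± 4.25 to 75.8 ± 3.70 CPM (edgeR adjusted p = 0.0295), and fell 2.27-fold with Klf5 siRNA, from 10.9 ± 4.12 to 4.80 ± 2.19 CPM (adjusted p = 0.0262). The stem cell call was lost without GFP library 1 (log2 fold change 0.79 in place of 0.89). The embryo call was lost without scramble embryo 2 or Klf5 siRNA embryo 1 or 2 (edgeR adjusted p = 0.0504 to 0.0563), and in 9 of 29 alternatives in all.

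Base excision and related genes downstream of the Tet enzymes gave 2 falls among 16 in stem cells (median -0.19, 12.5% called beside 2.78% over all genes tested). In embryos they gave 3 rises among 13 (median 0.10, 23.1% called beside 19.8% over all genes tested). In stem cells Ogt, the O-GlcNAc transferase that binds Tet proteins, fell 2.08-fold (64.7 ± 5.07 to 31.1 ± 1.97 CPM, edgeR adjusted p = 0.0285), and the glycosylase gene Neil2 fell 1.85-fold (21.99 ± 0.669 to 11.9 ± 0.924 CPM, adjusted p = 0.0354). Both calls were lost without GFP library 1 (adjusted p = 0.132 and 0.198), and that of Neil2 also without GFP library 2 or Klf5 library 1. Neil2 was also not called with limma voom or the replicate block, and neither gene was called in the test against 1.5-fold. In embryos Polb, the repair polymerase, rose 1.83-fold (37.1 ± 8.79 to 67.9 ± 24.3 CPM, edgeR adjusted p = 0.0132). Gadd45a and Gadd45b, stress-inducible genes, rose 4.57-fold and 4.25-fold (edgeR adjusted p = 0.0271 and 0.0301). Their calls were lost without Klf5 siRNA embryo 2 or 4 for Gadd45a and without embryo 1 or 5 for Gadd45b. Over all alternatives the call of Polb was lost in 4 of 29, that of Gadd45a in 10 of 28 and that of Gadd45b in 8 of 29. Only 1 gene of this list was called higher in embryos with limma voom, and 1 with the length offset. Of the genes of methyl donor and 2-oxoglutarate supply, none of 11 passed in stem cells by edgeR (4 at an unadjusted p under 0.05, 2 called by DESeq2 and 0 by limma voom). None of 12 passed in embryos by edgeR (5 at an unadjusted p under 0.05, 0 called by DESeq2 and 0 by limma voom). Over all genes tested, 3710 of 15968 in stem cells and 4112 of 12385 in embryos had an unadjusted edgeR p under 0.05. Slc23a1, a vitamin C transporter gene, came nearest in stem cells (log2 fold change -1.68, edgeR adjusted p = 0.0504), and Ahcyl2 in embryos (edgeR adjusted p = 0.0792).

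Germline genes that promoter methylation is known to silence form a further list. In stem cells none of 19 passed by edgeR (median 0.07, 2 called by DESeq2 and 0 by limma voom). Of these, 5 had an unadjusted edgeR p under 0.05, beside 3710 of 15968 genes tested. Dazl, a germ cell RNA-binding protein, came nearest (log2 fold change 1.02, edgeR adjusted p = 0.0784). In embryos 3 of 18 rose and 1 fell (median 0.46), a called share of 22.2% beside 19.8% over all genes tested. Tex19.2 rose 5.08-fold (3.11 ± 1.99 to 15.9 ± 10.6 CPM, edgeR adjusted p = 0.00167), and Stk31 fell 2.10-fold (81.2 ± 25.0 to 38.6 ± 24.5 CPM, edgeR adjusted p = 0.0250). The call of Stk31 was lost in 5 of 29 alternatives, and with the length offset no gene of this list was called lower. Tex19.1 rose 3.63-fold (adjusted p = 0.0135), but without Klf5 siRNA embryo 5 its log2 fold change dropped from 1.86 to 0.55 (adjusted p = 0.270). Dazl rose 7.69-fold (4.35 ± 7.89 to 33.5 ± 39.1 CPM, adjusted p = 0.0335), a call lost without scramble embryo 7 or 8 or Klf5 siRNA embryo 2 or 4 (adjusted p = 0.0508 to 0.114), and its log2 fold change was 4.09 without scramble embryo 3.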

How the data were processed

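The authors deposited estimated counts (expected counts) for each Ensembl gene, not normalized for library size. The submitters' processing notes name kallisto 0.46 and mm10. Per the labels' protocols stem cell cDNA was made with TruSeq v2 reagents and embryo cDNA with the SMARTseq-V4 kit. How transcripts were summed to genes, and the annotation release, are not given in the sources used here. Counts were rounded to whole numbers. Of 30265 genes 29831 were matched to a symbol of GENCODE M21 (GRCm38), which gave lengths; promoters came from RefSeq GRCm38.p6.

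Groups came from the labels, and no deposited library was left out. The library numbers of the Klf5 siRNA embryos and the library letters of the stem cells skip some values. What the skipped ones stood for is not known here. Each experiment was fitted alone with edgeR 4.0.16 (filterByExpr at a count of 10, TMM, robust quasi-likelihood F test), with p adjusted by Benjamini and Hochberg over all genes tested at a threshold of 0.05. CPM use TMM-scaled library sizes, and log2 CPM adds 0.1. Rounding moved no library total by more than 0.000756%. The fits were tested on simulated data. No 2 libraries of a group agreed within counting noise (the lowest chi-square over its degrees of freedom was 21.1).

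The members and the 11 gene lists were chosen with earlier results of these data known. The text names all 9 members, Klf5, up to 4 called genes of a list with the smallest p or the gene with the smallest p, and the genes most like a member. Kdm1b, Aire and the annotated copies were named after their values were seen. Alternatives were RLE and upper quartile scaling, DESeq2 1.42.0, limma voom 3.58.1, no filter, a higher filter (5 CPM), testing against 1.5-fold, a length offset (lowess span 0.3), each library left out, the replicate number as a block and, in embryos, the mitochondrial share or the number of detected genes as a covariate. Leaving out Klf5 siRNA embryos 2 and 4 together and a crossed stem cell pairing were chosen after seeing the data. Dixon's test was run on 18 sets of embryo values.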

Additional observations from a re-analysis of the deposited data

Results flagged for a closer look

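Dixon's test on the gap of the highest or lowest embryo over the range of its group (critical value 0.625 for 6 embryos) marked 3 of 18 groups of values, where chance marks about 1 in 20. All 3 were single high Klf5 siRNA embryos, a different one each time. Dnmt3a stood at 40.2 CPM in embryo 5, with the next embryo at 15.2 CPM (gap over range 0.861). Dnmt3l stood at 88.6 CPM in embryo 1, with the next at 48.4 CPM (0.743). Tet1 stood at 91.0 CPM in embryo 2, with the next at 35.1 CPM (0.793), while Tet2 was lowest of all 16 embryos in that embryo, at 1.97 CPM.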

How the results depend on the processing

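The count of members called in stem cells was 0, and 1 (Dnmt3b) with DESeq2 and 0 to 2 with 1 library left out (2, Dnmt3b and Tet1, without Klf5 library 2). In embryos it was 1, and 0 with RLE or upper quartile scaling, the test against a 1.5-fold change, the length offset, the replicate block and its 12 embryos without the block, 2 with DESeq2 (Dnmt3b and Tdg) and without Klf5 siRNA embryos 2 and 4 (Uhrf1 and Tdg), and 0 to 2 with 1 embryo left out. With the mitochondrial share as a covariate the member called was Tdg (-0.80, edgeR adjusted p = 0.0413), and with detected genes Uhrf1. Over all genes, 444 stem cell calls became 1438 with DESeq2, 115 with limma voom, 870 with no filter, 1 in the 1.5-fold test and 1 to 998 with a library left out (1 without GFP library 1). The 2447 embryo calls became 947 in the 1.5-fold test, 1423 in the 12 embryos and 2103 to 2470 with 1 left out.

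Replicate numbers did not pair the samples (same-number correlations of deviations -0.21 in stem cells and -0.17 to 0.14 in embryos, where no embryo matched its own number best). The replicate block called 155 stem cell genes, a crossed pairing 1475, and the block 902 embryo genes.

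Of 126 stem cell values of members under alternatives 11 changed sign: Tet2 with limma voom (-0.084), the replicate block (-0.080) and the crossed block (-0.065), Tdg with the length offset (-0.018), and 7 with a library left out, where Dnmt1 spanned -0.26 to 0.077, Dnmt3a -0.44 to 0.13, Uhrf1 -0.21 to 0.014, Tet2 -0.66 to 0.50 and Tdg -0.068 to 0.10. Of 261 in embryos 4 did: Tet2 with the length offset (0.12) and without embryos 2 and 4 (0.17), and, with the mitochondrial covariate, Uhrf1 (0.11) and Tet1 (0.38). With median transcript length 4, 3, 2 and 2 of 9 members kept their place in GFP cells, Klf5 cells, scramble and Klf5 siRNA embryos. Causes were not tested. DESeq2 and limma voom moved the median of all embryo genes to 0.10 and -0.12. Tet3, at 0.859 CPM in its lowest embryo, was the member nearest the counting floor.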

Other observations

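Annotated copies of the members had few counts. Dnmt3c, the rodent copy of Dnmt3b that acts in male germ cells, held 4 to 17 counts in stem cell libraries and at most 9 in embryos, where 9 of 10 scramble and 4 of 6 Klf5 siRNA embryos held 0. The Tdg pseudogene Tdg-ps held at most 9 counts in any library. The processed copy Dnmt3a-ps1 held 33 counts in 1 Klf5 siRNA embryo and 0 in the other 5, beside at most 6 in scramble embryos.

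The spread of single embryos differed among the members. In scramble embryos the coefficient of variation was 19.18% for Dnmt3l, 22.5% for Tdg and 34.2% for Dnmt3b, against 58.6% for Tet3. The highest scramble embryo exceeded the lowest 1.95-fold for Dnmt3l, 7.79-fold for Tet2 and 9.25-fold for Tet3.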
